A study of Homo sapiens with 12 samples.

Results

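This account describes 59 genes of mitotic entry, the spindle and cytokinesis, taken by symbol from a count table of 58735 lines. They comprise G2/M cyclins and kinases, the transcription factors FOXM1 and MYBL2, spindle proteins, mitotic kinesins, cytokinesis factors, condensin and chromosome proteins, and anaphase factors. All 59 were found once, and all were among the 16946 genes with enough reads to be tested. The libraries are poly(A) RNA-seq of CAL-27 and SCC-15, established lines from oral squamous cell carcinoma, with a short hairpin RNA against TTK (shTTK, labelled TTK knockdown) or titled shControl, with the genotype label WT. TTK, also called MPS1, is a kinase of the spindle assembly checkpoint. All 12 libraries are labelled untreated and carry the same batch label, and each line and hairpin has 3 of them. Only the titles speak of a control hairpin in those libraries. The labels name neither the hairpin sequence nor whether the cells are a clone or a pool, and they do not say that replicates were separate cultures, so p-values measure only the spread between these libraries.

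Entry into mitosis is driven by CDK1 bound to cyclin B. WEE1 and PKMYT1 hold CDK1 inactive by phosphorylating it, CDC25 phosphatases remove that phosphate, and PLK1 and AURKA help to start the switch. Kinesins and microtubule-binding proteins then build the spindle, condensin compacts the chromosomes, and the anaphase-promoting complex with UBE2C marks cyclin B and securin for destruction before the cell divides. Most of these genes are transcribed in G2 and M phase, through the DREAM and MuvB complexes, MYBL2, FOXM1 and NF-Y. In bulk RNA a smaller share of cells in G2 and M cannot be told apart from less of each transcript per cell.

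The promoters of this gene class are known for the cell cycle genes homology region (CHR), read by MuvB complexes, and for CCAAT boxes, read by NF-Y. RefSeq windows of GRCh38.p14, from 250 bases before to 50 after the annotated start, matched 49 of the 59 members with 63 windows. WEE1, PKMYT1, AURKA, FOXM1, TPX2, FAM83D, TROAP, RACGAP1, CDCA2 and UBE2C were not matched. The letters searched on both strands were TTTGAA and TTCGAA for the CHR and CCAAT for the NF-Y box; ATTGG is CCAAT on the other strand. Below are 6 members whose values are given later and whose windows held both kinds of match, with the matches in capitals, read 5′ to 3′ on the gene's strand. For KIF23, CDC25B, PLK1 and CDK1 an annotated exon of the gene reaches into the window, so only 30 bases around a match are shown. The other sequences are the 250 bases before the start.
KIF23 chr15:69414278-69414307 (+): ggcgctgATTGGcccgTTTGAAatgcgcca
CDC25B chr20:3796260-3796289 (+): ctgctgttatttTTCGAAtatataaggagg
PLK1 chr16:23678848-23678877 (+): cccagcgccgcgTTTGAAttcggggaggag
CDK1 chr10:60778393-60778422 (+): ggctctgATTGGctgcTTTGAAagtctacg
MKI67 chr10:128126424-128126673 (-): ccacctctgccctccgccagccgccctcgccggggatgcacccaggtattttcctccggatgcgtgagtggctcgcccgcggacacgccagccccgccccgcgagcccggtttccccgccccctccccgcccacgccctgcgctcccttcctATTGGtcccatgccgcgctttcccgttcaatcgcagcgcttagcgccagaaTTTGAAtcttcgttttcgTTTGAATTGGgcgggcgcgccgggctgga
KIF18B chr17:44947774-44948023 (-): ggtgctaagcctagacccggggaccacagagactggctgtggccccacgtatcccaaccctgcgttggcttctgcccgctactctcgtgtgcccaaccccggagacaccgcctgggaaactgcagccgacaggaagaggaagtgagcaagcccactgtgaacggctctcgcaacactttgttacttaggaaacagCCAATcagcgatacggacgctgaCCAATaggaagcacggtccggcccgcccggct

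In the KIF23 site the reversed CCAAT lay 64 bases and the TTTGAA 55 bases before the start, and CDK1 held the same pair at 78 and 69 bases. CDC25B carried TTCGAA in place of TTTGAA. MKI67 had 2 TTTGAA matches, of which the one nearer the start shares letters with a reversed CCAAT. The TTTGAA of KIF18B began 2 bases past the start, outside the stretch shown, which holds its 2 CCAAT boxes. Of the 49 matched members 38 (77.6%, 95% Wilson interval 64.1% to 87.0%) held a CHR-type match, against 19.5% of all 27305 genes with a window. A CCAAT box was found in 39 members (79.6%) and in 39.7% of all genes, and both kinds together in 32 members (65.3%) and in 7.85% of all genes. TTTGAA was in 35 members and TTCGAA in 5, and BORA and CCNF held both. A match describes letters in a window and is not evidence of binding.

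**Figure D1:**
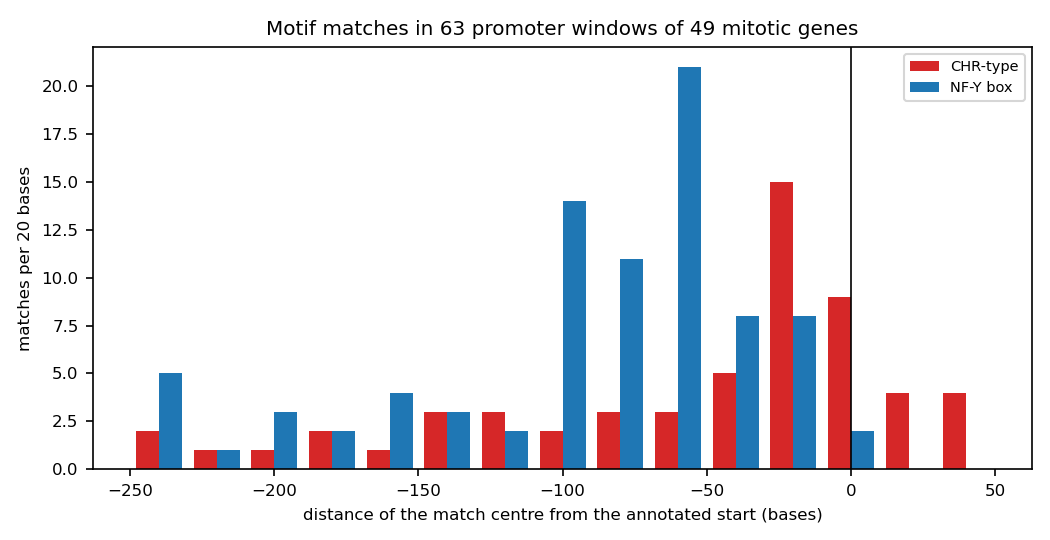
Matches per 20 bases (y axis) by distance of the match centre from the annotated start in bases (x axis), in 63 windows of 49 members, with CHR-type letters in red and NF-Y boxes in blue. The 58 CHR-type matches had a median of -26 bases and the 84 NF-Y boxes one of -72 bases; windows of 1 gene can overlap, so a match can count more than once.

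The carriers and non-carriers of these letters are set out by their changes with shTTK, which are described further on. In CAL-27, 9 of the 38 members with a CHR-type match were called lower, as were 4 of the 11 without one, against 15.7% of all genes tested and 26.4% of those with a mean of at least 20 CPM. In SCC-15, 5 of the 38 were called lower and 7 higher, and of the 11 without a match 3 were lower and 4 higher (all genes 14.3% and 13.4%). These shares lie near the background or rest on few genes, and nothing is read from them. KIF23, CDC25B and CDK1, which each held both kinds of letters, went down, up and were not called, respectively, in SCC-15. The medians of the carriers were -0.06 in CAL-27 and 0.06 in SCC-15 on the log2 scale, and those of the others -0.03 and 0.01.

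Total counts ran from 16176655 to 18484112 per library. Levels are CPM, counts divided by library size after scaling by the trimmed mean of M-values (TMM); changes are log2 fold changes with standard errors (SE) from edgeR's quasi-likelihood test, and a gene is called at a Benjamini-Hochberg adjusted p under 0.05 over all 16946 genes. TTK itself stood at 46.4, 48.4 and 53.4 CPM in the CAL-27 controls and at 35.6, 32.5 and 33.5 CPM with shTTK, 68.6% of control. In SCC-15 it stood at 67.5, 69.4 and 72.9 CPM and at 26.9, 29.2 and 34.3 CPM, 43.1% of control. The edgeR changes were -0.54 (adjusted p = 4.04e-10) and -1.21 (adjusted p = 1.92e-25), so a larger share of the TTK RNA was left in CAL-27. The 10 squamous markers had reads in every group. Their summed levels were 2908 to 3053 CPM in CAL-27 controls and 4936 to 4995 with shTTK. In SCC-15 they were 8488 to 8847 CPM in controls and 8150 to 8178 with shTTK. PKP1 stood at only 0.907 CPM in SCC-15 controls, and KRT14 at 3.44 CPM in CAL-27 controls and 763 in those of SCC-15. In CAL-27, 7 were called higher (KRT14 4.40) and 2 lower (EPCAM -0.28, CDH1 -0.11), against 11.6% and 15.7% of all genes. In SCC-15, 3 were called higher (CDH1 0.75) and 4 lower (KRT14 -1.05), against 13.4% and 14.3%. The part of the squamous markers in the results below was not tested. The 8 fibroblast and 6 leukocyte markers summed to at most 42.3 and 14.2 CPM, with DCN or PDGFRA at 0 in 3 of the groups and PTPRC at 0 in both CAL-27 groups. Most of the CAL-27 sums came from COL1A1, at 26.7 CPM in controls and 34.3 with shTTK (0.36, edgeR adjusted p = 7.48e-05), and CD14, at 9.31 and 12.7 CPM (0.46, edgeR adjusted p = 0.0118). The 4 endothelial markers summed to 102 to 110 CPM in CAL-27 controls and 72.4 to 74.3 with shTTK, with KDR at 0. Nearly all of that was CDH5, at 104 CPM in controls and 71.5 with shTTK (-0.54, edgeR adjusted p = 4.94e-14). The part of these markers was not tested either. In SCC-15, the libraries numbered 1 differed from the other 2 of their group by a mean chi-square per gene of 5.62 and 5.96 (control) and 3.07 and 3.78 (shTTK), against 1.98 and 1.95 between the others. Without both, 10 of the 26 calls made in SCC-15 were lost and 2 were gained, and 3 of the 27 calls of a difference between the lines were lost and 1 was gained; each of these members is named with its result.

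The 59 members together took 0.744% of the CAL-27 control reads and 0.888% of those of SCC-15. Their summed level was 7487, 7407 and 7434 CPM in the CAL-27 controls and 7198, 6918 and 7107 CPM with shTTK. In SCC-15 it was 8941, 8912 and 8793 CPM in the controls and 9052, 9214 and 9125 CPM with shTTK. The sum was thus lower with shTTK in all CAL-27 libraries and higher in all SCC-15 libraries, without overlap in either line. A sum weighs abundant members most, and the rise in SCC-15 was not seen in the median log2 CPM of the members. That was 6.879, 6.770 and 6.819 in SCC-15 controls and 6.768, 6.764 and 6.730 with shTTK, lower without overlap. In CAL-27 it was 6.721, 6.672 and 6.656 in controls and 6.617, 6.604 and 6.603 with shTTK. The median of the members' single changes in SCC-15, given below, was 0.06. Counts of the members ran from 20 to 10985 per library, and apart from PRC1 none was below 167. Per kilobase of annotated exon, the most abundant in CAL-27 controls were UBE2C at 123 ± 3.0, CCNB1 at 102 ± 0.957 and TOP2A at 80.6 ± 0.581 CPM per kb (SD, n = 3). In SCC-15 controls MYBL2 led at 179 ± 3.17 CPM per kb, before TPX2 at 129 ± 1.72, CCNB1 at 123 ± 1.48 and UBE2C at 121 ± 2.83 (SD, n = 3); the ranges of CCNB1 and UBE2C overlap within their SD.

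Knockdown of TTK was accompanied in CAL-27 by lower RNA of both transcription factors and of 7 of the 14 entry kinases, cyclins and phosphatases, while none of the 12 mitotic kinesins was called. In all, 18 of 59 members were called lower (30.5%) and 1, WEE1, higher (1.69%). Over all genes tested, 15.7% were called lower and 11.6% higher. The members are well-expressed genes, with a median mean level of 113 CPM against 16 over all genes tested, and among the 7834 genes with a mean of at least 20 CPM the background was 26.4% lower and 15.3% higher. Read against that second background, which was added after the data were seen, the share of members called lower is close to that of other well-expressed genes. The median change of the members was -0.06, against -0.01 over all genes and -0.04 over the well-expressed ones. Without overlap between the 3 and 3 libraries, 19 members were lower and 5 higher (background 21.3% and 17.1%).

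In SCC-15 the calls went both ways. There 11 members were called lower (18.6%, against 14.3% of all genes and 21.5% of the well-expressed) and 15 higher (25.4%, against 13.4% and 21.6%). The median was 0.06, against 0.00 over all genes. Libraries did not overlap for 12 members that were lower and 23 that were higher (background 19.6% and 19.3%). Cytokinesis genes were called lower in 4 of 6 cases, ECT2, RACGAP1, ANLN and ARHGAP11A, while CEP55 was higher. Without both SCC-15 libraries numbered 1, 2 of the 6, ECT2 (adjusted p = 0.0458) and ANLN (adjusted p = 0.00383), were still called lower by edgeR, and RACGAP1 (-0.10, adjusted p = 0.0983), ARHGAP11A (-0.08, adjusted p = 0.355) and CEP55 (0.12, adjusted p = 0.0645) were not. Over all 59 members that fit called 7 lower and 11 higher. The shares over all genes were taken from the fit of all 12 libraries only, so these counts have no background beside them.

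**Figure D2:**
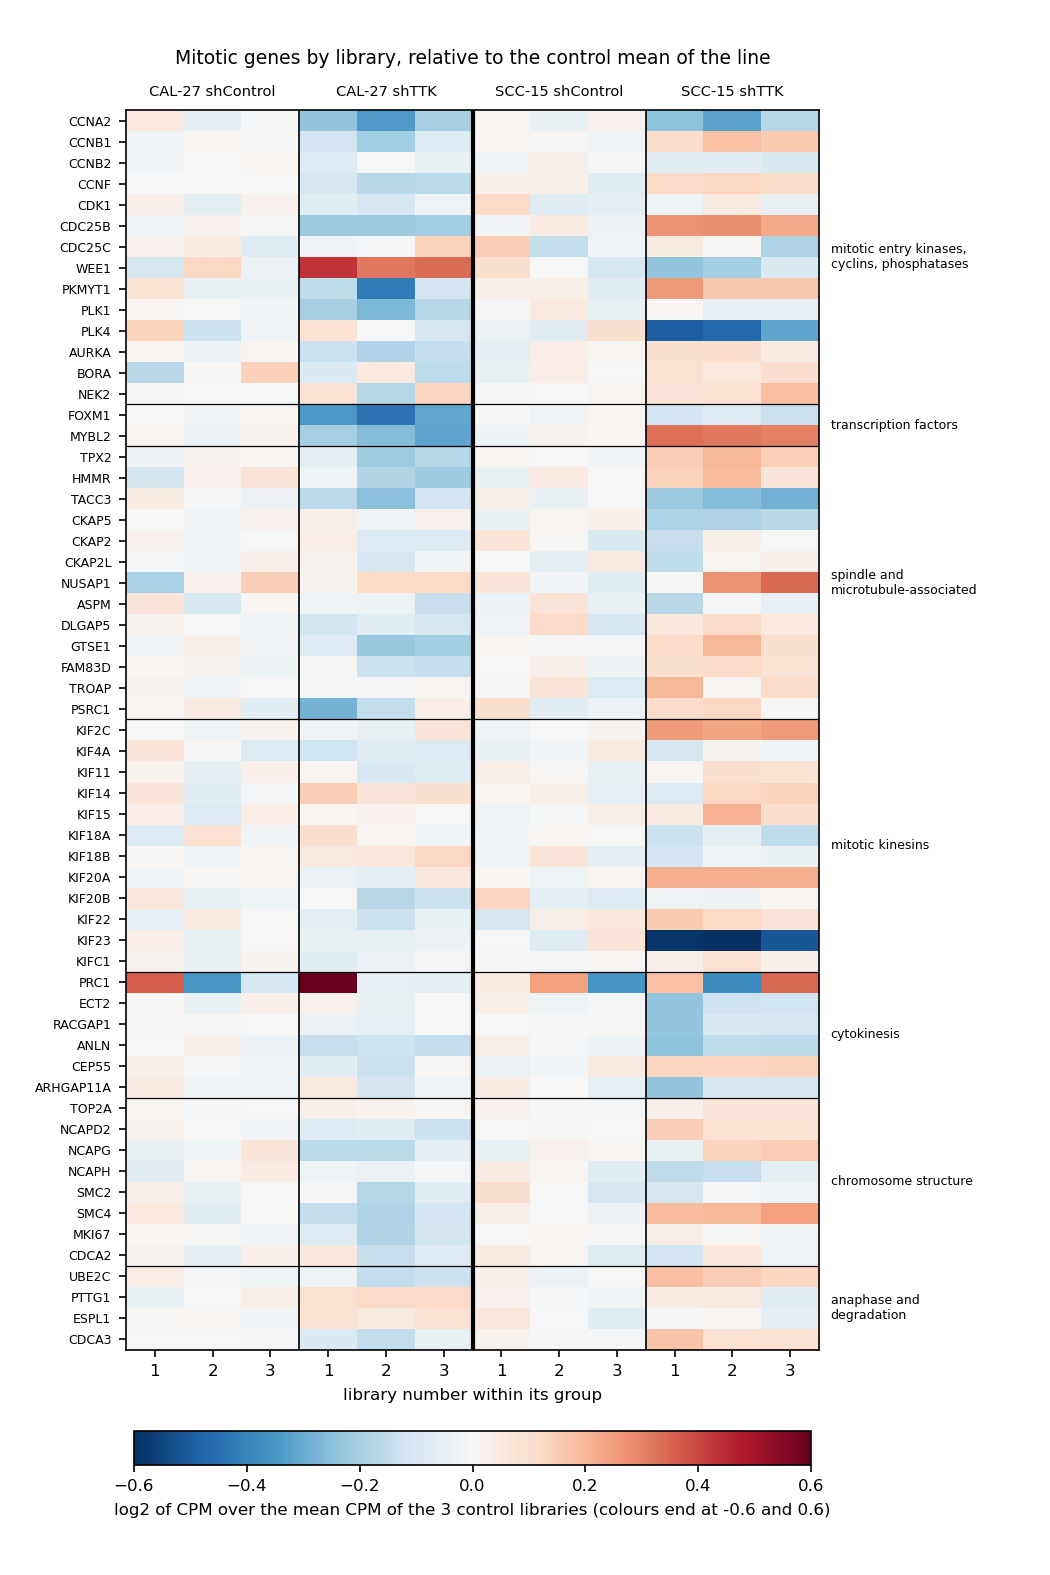
Log2 of each library's CPM over the mean CPM of the 3 controls of its line (colour), for the 59 members (rows, by role) in the 12 libraries (columns, by group). FOXM1 and MYBL2 are blue in the CAL-27 shTTK libraries, MYBL2 is red and KIF23 dark blue in those of SCC-15, and PRC1, which has few counts, varies within every group.

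The 2 transcription factors carried the smallest adjusted p of all members in CAL-27. FOXM1, a forkhead factor that activates late cell cycle genes, stood at 133, 131 and 133 CPM in CAL-27 controls and at 104, 97.3 and 107 CPM with shTTK. It was lower in all 3 libraries, at 77.6% of control (log2 -0.37 ± 0.04 SE, edgeR adjusted p = 5.86e-13). In SCC-15 its levels were 266, 261 and 266 CPM in controls and 244, 249.7 and 241 CPM, again without overlap. That change was smaller (-0.11 ± 0.03 SE, edgeR adjusted p = 0.00879), and without both libraries numbered 1 it was -0.10 with an adjusted p of 0.0540. The difference between the lines was 0.26 ± 0.05 SE (edgeR adjusted p = 4.54e-05).

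MYBL2, also known as B-Myb, joins MuvB to switch on G2/M genes. Its CAL-27 levels were 171, 166 and 172 CPM in controls and 148, 142 and 136 CPM with shTTK. Its SCC-15 levels were 488, 504 and 501 CPM in controls and 626, 620.5 and 614 CPM with shTTK. The groups did not overlap in either line, and the directions were opposite. MYBL2 was at 83.7% of control in CAL-27 (-0.26 ± 0.03 SE) and at 125% in SCC-15 (0.32 ± 0.03 SE), with edgeR adjusted p of 3.31e-09 and 4.35e-14. Its difference between lines, 0.57 ± 0.05 SE, was the largest increase among the members in that contrast (edgeR adjusted p = 1.29e-17).

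Among the cyclins, CCNA2, which works with CDK2 in S phase and CDK1 in G2, fell in both lines. It stood at 61.9, 57.2 and 59 CPM in CAL-27 controls and at 50.3, 46.9 and 51.7 CPM with shTTK. In SCC-15 the values were 112, 108 and 113 CPM and 93.4, 88.5 and 98.5 CPM. The 2 changes, -0.26 ± 0.05 and -0.24 ± 0.05 SE (edgeR adjusted p = 5.33e-05 and 1.03e-05), differed by 0.01, with a 95% interval from -0.12 to 0.15. CCNB1, the cyclin that activates CDK1 at mitosis, stood at 259, 264 and 263 CPM in CAL-27 controls and at 242, 227 and 247 CPM with shTTK. In SCC-15 it stood at 317, 315 and 309.8 CPM and at 339, 354 and 349.7 CPM. CCNB1 was therefore lower without overlap in CAL-27 (-0.13 ± 0.03 SE, edgeR adjusted p = 0.00108) and higher without overlap in SCC-15 (0.15 ± 0.03 SE, edgeR adjusted p = 0.000195).

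CCNF, the cyclin of an SCF ubiquitin ligase, was called lower in CAL-27 (-0.14) and higher in SCC-15 (0.12), while CCNB2 was called in neither (-0.04 and -0.07). Each CCNF call was lost in 5 of the 21 alternative settings, that in SCC-15 among others without both libraries numbered 1 (0.13, edgeR adjusted p = 0.0650). CDK1 was not called in any comparison of the main fit. Between the control groups its change was -0.08 (edgeR adjusted p = 0.0768), and 4 alternative settings called it lower in SCC-15. It stood at 124, 116 and 123 CPM in CAL-27 controls and at 115, 113 and 119 CPM with shTTK. Levels in SCC-15 were 124, 109 and 109.7 CPM in controls and 112, 119 and 111 CPM, so the groups overlapped in both lines. The 95% intervals of its changes ran from -0.15 to 0.02 in CAL-27 and from -0.09 to 0.08 in SCC-15.

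Of the enzymes that set or remove the phosphate on CDK1, CDC25B moved in opposite directions in the 2 lines. CDC25B, a phosphatase that activates CDK1, stood at 216, 222 and 217 CPM in CAL-27 controls and at 188, 188 and 189 CPM with shTTK. In SCC-15 it stood at 285, 298 and 282 CPM and at 347, 349 and 337 CPM. It fell by 0.22 ± 0.03 SE in CAL-27 (edgeR adjusted p = 2.12e-07) and rose by 0.26 ± 0.03 SE in SCC-15 (edgeR adjusted p = 4.37e-10), and the groups were apart in both. The difference was 0.47 ± 0.05 SE (edgeR adjusted p = 9.14e-14). CDC25C, a second CDK1 phosphatase, was called in neither line (0.04 and -0.04).

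WEE1, a kinase that inhibits CDK1, was the only member called higher in CAL-27. It stood at 151, 175 and 157 CPM in controls and at 218, 201 and 203 CPM with shTTK, 128% of control (0.36 ± 0.06 SE, edgeR adjusted p = 0.000235). The SCC-15 levels were 144, 135 and 125 CPM in controls and 114, 116 and 126 CPM, where the groups overlapped. The SCC-15 change was just past the threshold (-0.18 ± 0.06 SE, edgeR adjusted p = 0.0469). Without both libraries numbered 1 it was -0.10 (adjusted p = 0.358), and 11 of the 21 alternative settings lost that call. The difference between the lines, -0.54 ± 0.09 SE (edgeR adjusted p = 0.000202), kept its call in every setting that fitted both lines together. PKMYT1, the other inhibitory kinase, went the opposite way to WEE1, with -0.22 in CAL-27 and 0.19 in SCC-15 (edgeR adjusted p = 0.0115 and 0.0172). Its SCC-15 call was lost without both libraries numbered 1 (0.18, edgeR adjusted p = 0.169), without SCC-15 control 3 and without SCC-15 shTTK 1, and its CAL-27 call with each line fitted alone.

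PLK1, which promotes entry and later spindle and cytokinesis steps, was called in CAL-27 alone. It stood at 216, 215 and 212 CPM in CAL-27 controls and at 187, 178 and 191 CPM with shTTK (-0.21 ± 0.04 SE, edgeR adjusted p = 9.39e-07). In SCC-15 it stood at 211, 220.0 and 205 CPM and at 213, 205 and 205 CPM, which overlap (-0.03, 95% interval -0.10 to 0.04). The 2 changes differed by 0.18 ± 0.05 SE (edgeR adjusted p = 0.00294). AURKA, the centrosomal Aurora kinase, showed -0.15 in CAL-27 (edgeR adjusted p = 0.000602) and 0.08 in SCC-15 (adjusted p = 0.0813), a difference of 0.23. PLK4, which starts centriole duplication, was unlike both, with a change of -0.00 ± 0.08 SE in CAL-27 and -0.42 ± 0.08 SE in SCC-15 (edgeR adjusted p = 5.31e-06). Its SCC-15 levels were 33.7, 32.9 and 36.9 CPM in controls and 24.5, 24.9 and 27.7 CPM with shTTK. BORA and NEK2 were called in neither line.

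**Figure D3:**
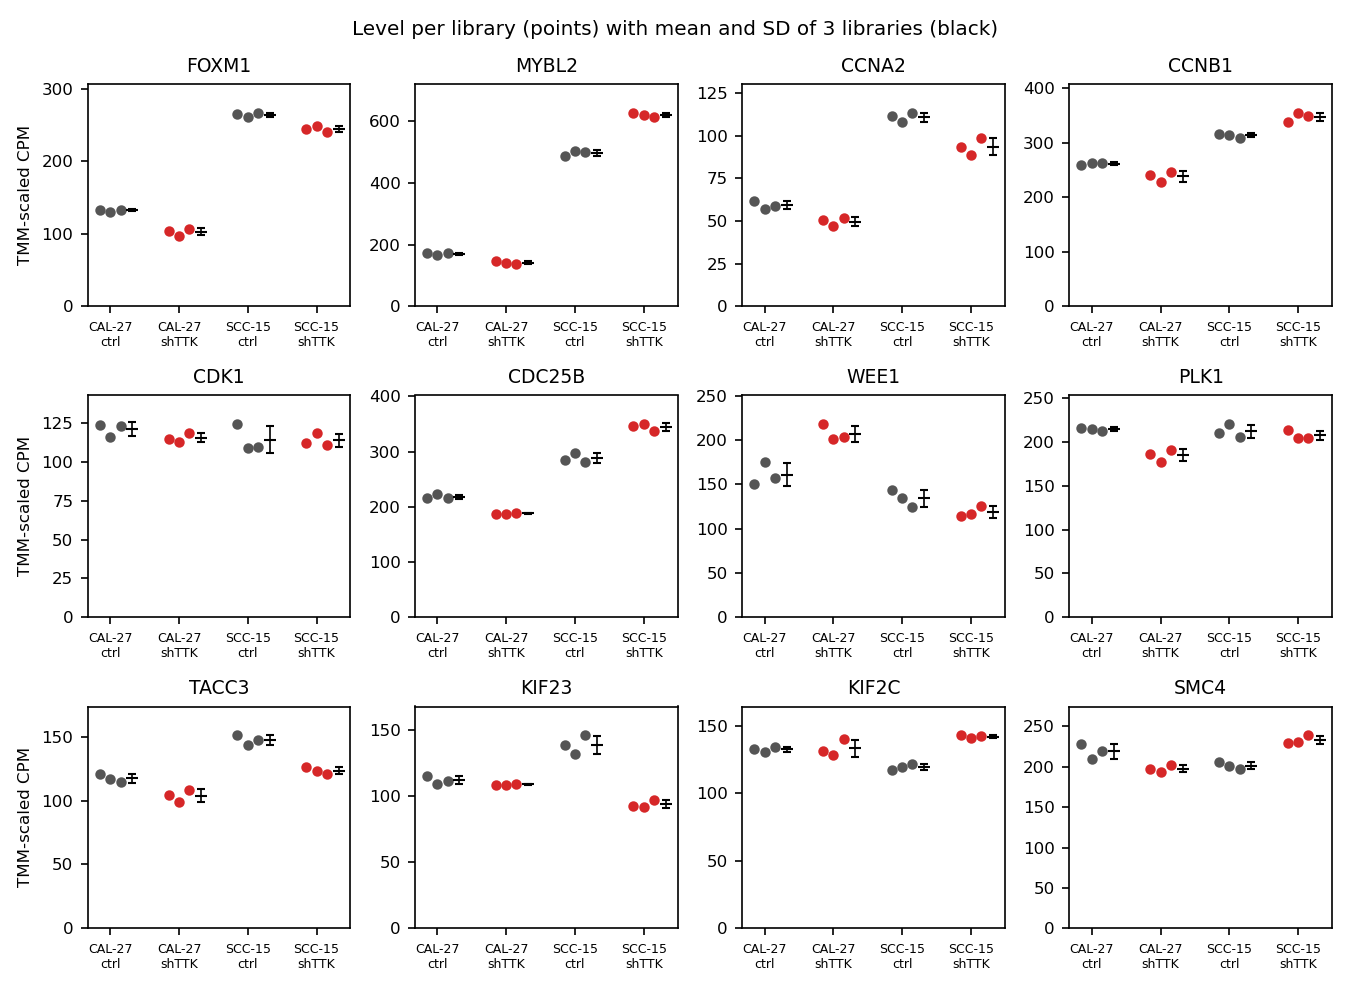
TMM-scaled CPM (y axis, from 0) of 12 members in the 4 groups of libraries (x axis); points are libraries, grey for control and red for shTTK, and black bars the mean and SD of 3 libraries. KIF23 drops in SCC-15 from 132 to 146 CPM to 91.8 to 97.3 CPM and lies at 109 to 115 CPM throughout CAL-27, while MYBL2, CDC25B, CCNB1 and SMC4 lie below control in CAL-27 and above it in SCC-15.

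Of the 13 spindle and microtubule-associated genes, 4 were called lower in CAL-27 (TPX2, HMMR, TACC3 and GTSE1). That is 30.8%, against 15.7% of all genes and 26.4% of the well-expressed. In SCC-15, TACC3 and CKAP5 were called lower (15.4%, against 14.3% and 21.5%). TPX2, GTSE1 and FAM83D were called higher there (23.1%, against 13.4% and 21.6%). The shares rest on 13 genes, and nothing is read from them. HMMR was barely past the threshold in CAL-27 (-0.14, edgeR adjusted p = 0.0451), with overlapping libraries, and lost that call in 14 of 21 settings. In SCC-15 HMMR changed by 0.13 (edgeR adjusted p = 0.0603) and was called higher in 7 settings. GTSE1 lost its CAL-27 call without CAL-27 control 2 or shTTK 3 and its SCC-15 call without SCC-15 shTTK 2. FAM83D lost its SCC-15 call in 5 settings, among them the fit without both libraries numbered 1 (0.10, edgeR adjusted p = 0.0914). TACC3 and CKAP5 encode partners in a complex that crosslinks kinetochore microtubules. TACC3 stood at 121, 117 and 115 CPM in CAL-27 controls and at 105, 98.6 and 108 CPM with shTTK. In SCC-15 its levels were 151, 143 and 148 CPM in controls and 127, 123 and 121 CPM, so it was lower without overlap in both lines. Its changes were -0.18 ± 0.04 and -0.25 ± 0.04 SE (edgeR adjusted p = 0.000411 and 1.90e-07), and their difference had a 95% interval from -0.19 to 0.03. CKAP5, a microtubule polymerase, changed by -0.18 in SCC-15 (edgeR adjusted p = 3.71e-06) and 0.01 in CAL-27.

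TPX2, which activates AURKA on the spindle, stood at 251, 259.8 and 259 CPM in CAL-27 controls and at 247, 221 and 228 CPM with shTTK. In SCC-15 it stood at 471, 466 and 459 CPM and at 516, 534 and 514 CPM. TPX2 was thus below all controls in CAL-27 (-0.15 ± 0.03 SE, edgeR adjusted p = 0.000384) and above all controls in SCC-15 (0.16 ± 0.03 SE, edgeR adjusted p = 2.42e-05). The large spindle-pole protein ASPM and CKAP2, CKAP2L, DLGAP5, TROAP and PSRC1 were called in neither line in the main fit. DLGAP5 and TROAP were each called higher in SCC-15 in 1 setting, and PSRC1 lower in CAL-27 in 1 setting.

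The 12 kinesins gave no call in CAL-27, with changes from -0.09 to 0.11. There 15.7% of all genes were called lower and 11.6% higher (26.4% and 15.3% of the well-expressed). In SCC-15, 1 kinesin was called lower and 3 higher, against 14.3% and 13.4% of all genes (21.5% and 21.6%). The counts rest on 12 genes, and nothing is read from them. At an unadjusted edgeR p under 0.05, 1 kinesin, KIF14 (0.11), passed in CAL-27, and with DESeq2 or limma-voom 0 did after adjustment. KIF14 was called in CAL-27 with each line fitted alone and without SCC-15 shTTK 1, and KIF4A without CAL-27 control 3. KIF23, also called MKLP1, is the motor of the centralspindlin complex at the midzone (chr15:69414246-69448427, plus strand, GRCh38). It stood at 115, 109 and 112 CPM in CAL-27 controls and at 109, 109 and 109 CPM with shTTK. Levels in SCC-15 were 139, 132 and 146 CPM in controls and 92.4, 91.8 and 97.3 CPM with shTTK, 67.6% of control. This was the largest decrease among the members in either line (-0.57 ± 0.04 SE, edgeR adjusted p = 8.16e-20), and it was -0.55 without both libraries numbered 1. The CAL-27 change was -0.04 (adjusted p = 0.535), and the lines differed by -0.53 ± 0.06 SE (edgeR adjusted p = 9.96e-12). RACGAP1, the partner of KIF23 in centralspindlin, changed by -0.14 in SCC-15 (edgeR adjusted p = 0.00205), a call lost without SCC-15 shTTK 1 and without both libraries numbered 1.

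KIF2C, a kinesin that depolymerises microtubules to free wrong attachments, stood at 118, 119.9 and 122 CPM in SCC-15 controls and at 143, 141 and 143 CPM with shTTK (0.25 ± 0.04 SE, edgeR adjusted p = 1.97e-07). In CAL-27 it stood at 133, 131 and 135 CPM and at 131, 129 and 140.2 CPM, which overlap. KIF20A, a motor of late mitosis and cytokinesis, stood at 186, 181 and 186 CPM in SCC-15 controls and at 214 CPM in all 3 shTTK libraries (0.22 ± 0.04 SE, edgeR adjusted p = 6.99e-07). In CAL-27 it stood at 129.7, 132 and 132 CPM and at 128, 126 and 137 CPM. Both kinesins were therefore above every SCC-15 control and overlapped their CAL-27 controls, and their changes differed between lines by 0.24 and 0.22 (edgeR adjusted p = 0.000307 and 0.000403). KIF22 was also called higher in SCC-15 (0.12, edgeR adjusted p = 0.0354). That call was lost without SCC-15 control 1, shTTK 1 or shTTK 2, and without both libraries numbered 1 the change was 0.05 (adjusted p = 0.550).

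The 6 cytokinesis genes, among which KIF23 is not counted here, changed less than KIF23 where they were called. ANLN, the anillin scaffold of the contractile ring, changed by -0.13 in CAL-27 and -0.18 in SCC-15 (edgeR adjusted p = 0.000632 and 5.19e-06). ECT2, an exchange factor at the midzone, changed by -0.16 in SCC-15 (edgeR adjusted p = 0.000138) and by -0.01 in CAL-27. CEP55, an abscission factor, changed by 0.13 in SCC-15 (edgeR adjusted p = 0.00713), a call lost without SCC-15 control 1 and without both libraries numbered 1. ARHGAP11A lost its SCC-15 call in 4 settings that left out SCC-15 libraries. PRC1, the microtubule bundler of the midzone, was counted only 20 to 43 times per library, and its 95% intervals ran from -0.28 to 0.91 in CAL-27 and from -0.52 to 0.68 in SCC-15. By the GENCODE v29 annotation 57.6% of the exonic bases of PRC1 are shared, on the same strand, with AC068831.7, which held 97 to 160 counts. NUSAP1, a spindle protein with 167 to 252 counts, was called higher in SCC-15 without both libraries numbered 1 (0.35, edgeR adjusted p = 0.0492). It shares 62.2% with AC087721.2, which is listed at 0 in all libraries. These low values were looked into after they were seen, and the counts of both members are uncertain.

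Of the 8 chromosome structure genes, SMC4 changed most. SMC4, a core subunit of condensin, stood at 228, 209.9 and 219 CPM in CAL-27 controls and at 198, 193 and 203 CPM with shTTK. In SCC-15 it stood at 206, 201 and 197 CPM and at 229, 231 and 239 CPM. It was below every control in CAL-27 (-0.15 ± 0.03 SE, edgeR adjusted p = 0.000536) and above every control in SCC-15 (0.21 ± 0.03 SE, edgeR adjusted p = 9.51e-07). NCAPD2, a condensin subunit, was called in the same 2 directions (-0.09 and 0.11), but the CAL-27 call was lost in 11 of 21 settings and the SCC-15 call without both libraries numbered 1 (0.09, edgeR adjusted p = 0.0635). SMC2, NCAPG and NCAPH were called in neither line in the main fit. NCAPH (-0.11 in SCC-15, edgeR adjusted p = 0.0601) was called lower there in 3 settings. NCAPG was called lower in CAL-27 in 1 setting and higher in SCC-15 in 1 setting.

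MKI67, the proliferation antigen Ki-67 that coats mitotic chromosomes, stood at 345, 344 and 337 CPM in CAL-27 controls and at 323, 302 and 316 CPM with shTTK. The SCC-15 levels were 555, 561 and 553 CPM in controls and 571, 559 and 548 CPM. The CAL-27 libraries did not overlap (-0.12 ± 0.03 SE, edgeR adjusted p = 0.00115) and those of SCC-15 did (0.01 ± 0.03 SE). TOP2A, the topoisomerase that untangles sister chromatids, was called in neither line (0.02 and 0.06), but it was called higher in SCC-15 by DESeq2 and limma-voom, and without both libraries numbered 1 (0.09, edgeR adjusted p = 0.0315).

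Of the 4 anaphase genes, UBE2C, the ubiquitin-conjugating enzyme of the anaphase-promoting complex, was called in both lines (-0.10 and 0.15, edgeR adjusted p = 0.0379 and 0.000702). The CAL-27 call was lost in 13 of 21 alternative settings. Securin (PTTG1), separase (ESPL1) and CDCA3 were called in neither, although PTTG1 (0.11 in CAL-27, edgeR adjusted p = 0.0714) was called higher there in 8 of the 21 settings.

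Across the 2 knockdowns, 10 members were called lower in CAL-27 and higher in SCC-15. They were CCNB1, CCNF, CDC25B, PKMYT1, MYBL2, TPX2, GTSE1, NCAPD2, SMC4 and UBE2C, 16.9% of the members, against 2.90% of all genes tested and 5.50% of the well-expressed ones. The reverse pattern was seen for WEE1 (background 1.91% and 3.0%). Lower in both were CCNA2, FOXM1, TACC3 and ANLN, 6.78% against 4.01% and 7.53%. No member was called higher in both lines by edgeR with all 12 libraries (background 2.87% and 4.95%), and 29 were called in neither. None was higher in both at an unadjusted edgeR p under 0.05, or by DESeq2 or limma-voom. Without SCC-15 shTTK 1, however, edgeR called KIF14 higher in both lines. The count of 10 came to 6 without CAL-27 control 2, without CAL-27 shTTK 3, without SCC-15 control 3, or without SCC-15 shTTK 1 or 2, and to 7 without both SCC-15 libraries numbered 1. The set was chosen with results of these data known, so these shares are a description.

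**Figure D4:**
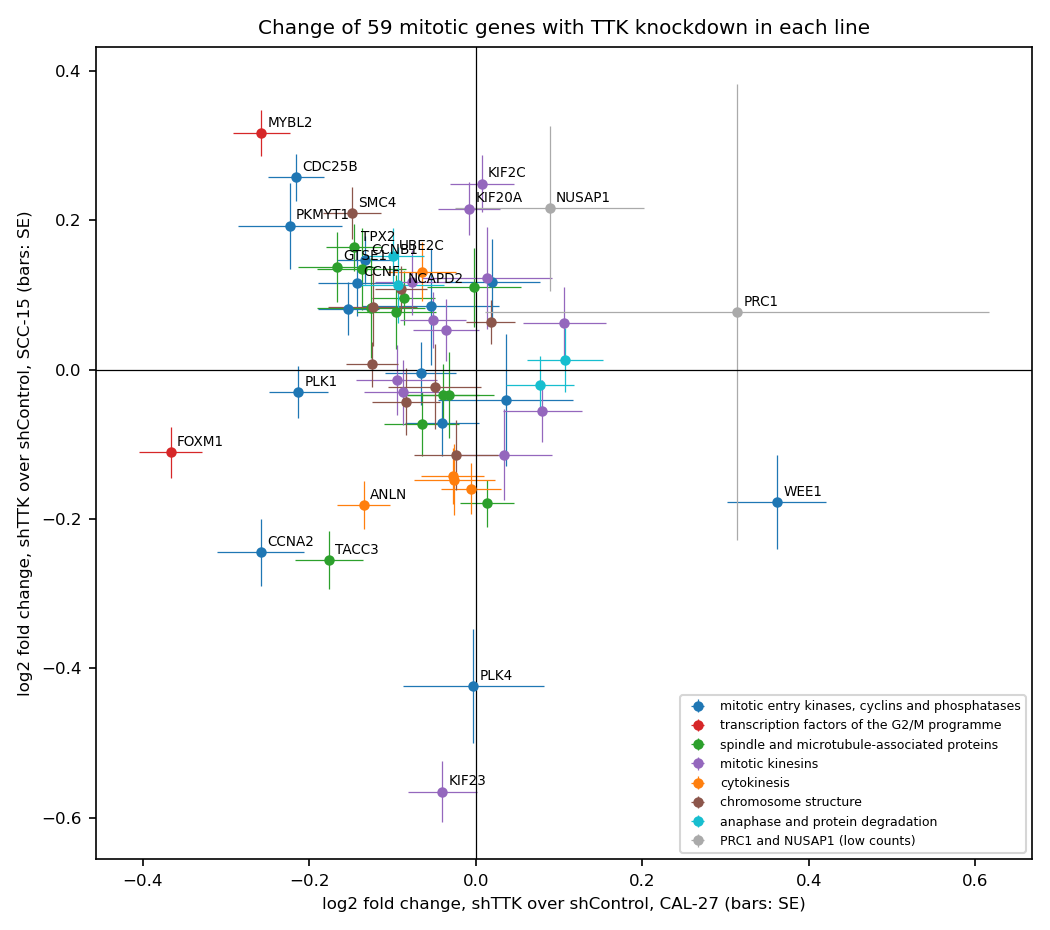
Log2 fold change with shTTK in CAL-27 (x axis) against SCC-15 (y axis) for the 59 members, with SE bars and colours by role. The members called lower in CAL-27 and higher in SCC-15 lie at the upper left with MYBL2 farthest out, KIF23 and PLK4 lie at the bottom near 0 on the x axis, and WEE1 lies at the lower right.

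The difference of the 2 changes was tested itself. It was called for 27 members, 22 with a higher change in SCC-15 (37.3%, against 13.3% of all genes and 22.7% of the well-expressed) and 5 with a lower one (8.47%, against 12.1% and 17.4%). The 5 were WEE1, KIF23, PLK4, CKAP5 and ECT2. ECT2 lost the call without SCC-15 control 1 and without both SCC-15 libraries numbered 1, where its difference was -0.09 (edgeR adjusted p = 0.201). In the latter fit KIF22 (0.13, adjusted p = 0.158) and CDCA3 (0.19, adjusted p = 0.0820) were also lost and KIF11 (0.17, adjusted p = 0.0246) was gained. Over all alternative settings the call was lost in 10 for CDCA3, 7 for NCAPG, 6 for MKI67, 5 for KIF22 and 1 for FAM83D. The median difference was 0.10, against 0.00 over all genes and 0.03 over the well-expressed. By role, 6 of the 14 entry genes, both transcription factors, 4 of 13 spindle genes, 3 of 12 kinesins, 1 of 6 cytokinesis genes, 4 of 8 chromosome structure genes and 2 of 4 anaphase genes were among the 22. The lines also differ in how much TTK RNA the hairpin left, which cannot be told apart from a difference between the lines.

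Before any knockdown the lines already differed in many members. In the control libraries, 32 members were higher in SCC-15 (54.2%, against 37.8% of all genes and 46.9% of the well-expressed) and 15 were lower (25.4%, against 38.2% and 39.3%), with a median of 0.13 against -0.01 over all genes. This comparison shares its control libraries with the knockdown comparisons. MYBL2 was at 293% of its CAL-27 level (1.55 ± 0.03 SE, edgeR adjusted p = 9.44e-55) and FOXM1 at 199.7% (1.00 ± 0.04 SE, edgeR adjusted p = 1.55e-39). KIF18B, a plus-end kinesin that works with KIF2C, stood at 63.8, 62.3 and 64.0 CPM in CAL-27 controls and at 125, 134 and 122 CPM in SCC-15 controls (1.00 ± 0.04 SE, edgeR adjusted p = 1.12e-33). With shTTK it stood at 65.7, 66.2 and 69.0 CPM in CAL-27 and at 118, 126 and 123 CPM in SCC-15, not called in either. CCNA2 (0.90), TPX2 (0.86), PLK4 (0.81) and MKI67 (0.70) were also higher in SCC-15. SMC2 was the member with the largest deficit in SCC-15 controls (-0.76 ± 0.04 SE, edgeR adjusted p = 1.38e-26), followed by CKAP2L (-0.57) and KIFC1 (-0.55). CDK1, PLK1, AURKA, CCNB2 and UBE2C were not called between the lines, although CDK1 was in 4 alternative settings.

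**Figure D5:**
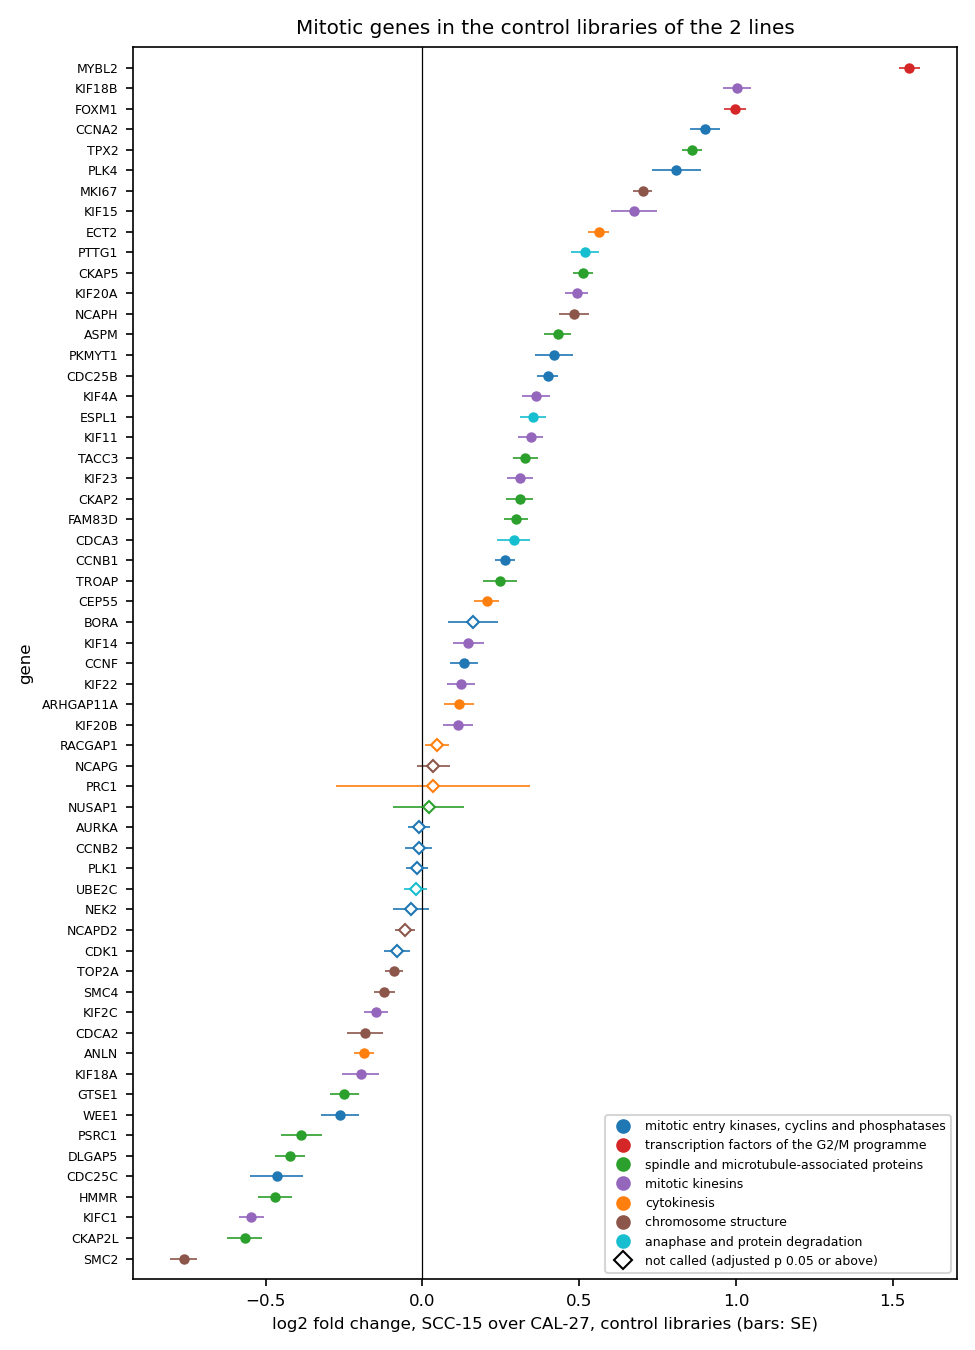
Log2 fold change of SCC-15 over CAL-27 in the control libraries (x axis, SE bars) for the 59 members (y axis, sorted), coloured by role, with open diamonds for genes not called. MYBL2 stands at the top at 1.55 and SMC2 at the bottom at -0.76.

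The other genes of the pathway were counted from 7 lists of 114 genes, beside 15.7% of all genes tested called lower and 11.6% higher in CAL-27, and 14.3% and 13.4% in SCC-15 (26.4% and 15.3%, and 21.5% and 21.6%, of those with a mean of at least 20 CPM). Of 14 DREAM, MuvB and NF-Y subunits, 3 were lower and 1 higher in CAL-27, and 4 lower and 5 higher in SCC-15. E2F4, the repressor E2F of DREAM, changed by -0.19 and 0.14, and the MuvB subunit RBBP4 by -0.18 and 0.00. Of 12 genes of the spindle checkpoint and chromosomal passenger complex, 6 were lower in CAL-27, while 2 were lower and 3 higher in SCC-15. Within the passenger complex, which holds Aurora B, BIRC5 changed by -0.30 in CAL-27 (edgeR adjusted p = 3.97e-10) and 0.07 in SCC-15, and INCENP by -0.02 and -0.36 (edgeR adjusted p = 3.62e-12 in SCC-15). Of 17 further regulators of CDK1 and PLK1, 2 were lower and 1 higher in CAL-27, and 4 lower and 1 higher in SCC-15. The fitted changes of the PP2A inhibitors ARPP19 (0.10 and -0.25) and ENSA (-0.08 and 0.19) had opposite signs. In CAL-27 that of ARPP19 was called (edgeR adjusted p = 0.0341) and that of ENSA was not (edgeR adjusted p = 0.0983). Of 16 anaphase-promoting complex genes, 4 were lower in CAL-27, and 5 lower and 3 higher in SCC-15. UBE2S, which extends the ubiquitin chains that UBE2C starts, changed by -0.26 and 0.13, and ANAPC16 by -0.26 and -0.03.

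Among 27 gamma-tubulin, augmin and centrosome genes, 3 were lower and 4 higher in CAL-27, and 6 lower and 3 higher in SCC-15. MAPRE1, which encodes the plus-end protein EB1, was lower in both (-0.34 and -0.66, edgeR adjusted p = 3.31e-13 and 7.22e-28), and CLASP1, a microtubule stabiliser, changed by 0.22 and -0.25. Of 14 cohesin and condensin II genes, 6 were lower in CAL-27, and 4 lower and 3 higher in SCC-15, where the cohesin regulators PDS5A and PDS5B changed by -0.31 and -0.34. Of 14 contractile ring and abscission genes, 5 were lower in CAL-27, and 3 lower and 2 higher in SCC-15. MYH9, the non-muscle myosin heavy chain, changed by -0.30 and 0.26 (edgeR adjusted p = 2.26e-15 and 4.67e-13), and VPS4B, an ATPase of abscission, by -0.46 and -0.34. Several of these counts are near the background, and none of the lists was tested as a list.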

How the data were processed

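The 12 libraries were poly(A) RNA, dUTP strand-marked and read in pairs on a NovaSeq 6000, per the labels' protocols. Trim Galore 0.6.6, STAR 2.7.7a, featureCounts 2.0.1 and hg38 are named in the submitters' processing notes, which give no options for the counting. The values are raw read counts per gene, deposited by the authors without normalization.

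Groups came from the titles. Genes passing filterByExpr (16946) were fitted with edgeR 4.0.16 (R 4.3.3; TMM, robust quasi-likelihood, 4 group means, 8 residual degrees of freedom) for shTTK against control in each line, the difference of those changes, and SCC-15 against CAL-27 controls. An SE is the absolute log2 fold change over the square root of F, and intervals are 1.96 SE. The members and gene lists were chosen with earlier results of these data known. Library values were given for the members with the smallest adjusted p per comparison, the largest increase and decrease, and CCNB1, CDK1, FOXM1 and MYBL2. From each pathway list up to 2 called genes with the smallest adjusted p were named; PLK4 values were added after they were seen. Where a gene had several promoter windows the one with most matches was shown, a choice made after CDK1's first window was seen. DESeq2 1.42.0, limma 3.58.1 (voom), 2 scalings, 2 filters, separate lines, a replicate term, left-out libraries and a shorter promoter window were the alternatives. On simulated counts the fit recovered 76% (CAL-27) and 62% (SCC-15) of 50 genes changed by 0.5 on the log2 scale, and 88% and 92% of 50 changed by 1, over 16281 genes. Of its calls, 4.65% (CAL-27) and 6.10% (SCC-15) fell on unchanged genes. The changed genes covered a wide range of levels, and both lines had the same baseline. Member changes ran from -0.37 to 0.36 in CAL-27 and from -0.57 to 0.32 in SCC-15, so these rates do not describe the member calls. Lines whose symbols had become dates (27, 0.183% of counts) stayed in the library totals.

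Exons of 10 members (CCNF, PKMYT1, PLK1, BORA, FOXM1, KIF22, KIFC1, ARHGAP11A, NCAPG and SMC4) overlap genes on the opposite strand by over 10% of their bases in GENCODE v29. The strand setting of the counting is unknown here, so their counts are uncertain, as are those of genes with near-identical copies, such as ARHGAP11A and PTTG1.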

Additional observations from a re-analysis of the deposited data

Results flagged for a closer look

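The change with shTTK differed between the lines for 27 members by the interaction term of the edgeR fit; each value is the log2 change in SCC-15 less that in CAL-27. The entry genes CCNB1 (0.28), CCNF (0.26), CDC25B (0.47), PKMYT1 (0.42), PLK1 (0.18) and AURKA (0.23) had a higher change in SCC-15 than in CAL-27. So did the transcription factors FOXM1 (0.26) and MYBL2 (0.57), and the spindle genes TPX2 (0.31), HMMR (0.27), GTSE1 (0.30) and FAM83D (0.18). The kinesins KIF2C (0.24), KIF20A (0.22) and KIF22 (0.19) did as well. The same direction held for the abscission factor CEP55 (0.20), the chromosome genes NCAPD2 (0.20), NCAPG (0.21), SMC4 (0.36) and MKI67 (0.13), and the degradation genes UBE2C (0.25) and CDCA3 (0.21). The difference had the opposite sign for WEE1 (-0.54), KIF23 (-0.53), PLK4 (-0.42), CKAP5 (-0.19) and ECT2 (-0.15). Not all of these calls were firm. The call was lost in 10 alternative settings for CDCA3, 7 for NCAPG, 6 for MKI67, 5 for KIF22, 2 for ECT2 and 1 for FAM83D. For MYBL2, CDC25B, CCNB1, TPX2 and SMC4 the libraries of the 2 groups did not overlap in either line. The hairpin left 68.6% of control TTK RNA in CAL-27 and 43.1% in SCC-15, and the part of that difference was not tested.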

How the results depend on the processing

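No call reversed under any of the 21 settings. Of 19 called members in CAL-27, 13 kept the call in all settings, as did 15 of 26 in SCC-15. So did 21 of 27 for the difference and 43 of 47 between controls, which were not compared with each line fitted alone. The count called higher in CAL-27 was 2 with total counts in place of TMM, 2 with a filter of at least 1 CPM in 3 libraries and 3 with each line fitted alone, and the cause was not tested. Without both SCC-15 libraries numbered 1, 7 members were called lower in SCC-15, with fewer libraries fitted. Shares over all genes were taken from the main fit only, so counts of the other fits have no background beside them. In the 150 bases before the start, 59.2% of members held a CHR-type match and 51% held both kinds, against 9.72% and 2.65% of all genes; the window is shorter.

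Leaving out 1 library in turn gave 13 to 18 members lower and 1 to 3 higher in CAL-27 (median -0.069 to -0.031), 8 to 12 lower and 12 to 18 higher in SCC-15 (0.03 to 0.07), 4 to 6 lower and 18 to 22 higher for the difference (0.08 to 0.12), and 15 to 16 lower and 29 to 32 higher between controls (0.13 to 0.16). Members lower in CAL-27 and higher in SCC-15 numbered 6 to 11, and lower in both 4 in each fit. With a replicate block the counts were 17 lower and 1 higher in CAL-27, 10 and 15 in SCC-15, 5 and 22 for the difference and 15 and 32 between controls. Same-numbered libraries did not deviate together over all tested genes (correlations -0.02 to 0.03). Such correlations can miss a shared culture or handling, so pairing by number is not excluded.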
